A study of Mus musculus with 12 samples.

Results

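Reads of 7 genes of the RAS to ERK cascade were followed in 12 RNA sequencing libraries of mouse colon. The genes were Hras and Nras, which encode RAS proteins, Araf and Braf, which encode RAF kinases, Map2k1 and Map2k2, which encode MEK1 and MEK2, and Mapk3, which encodes ERK1. They were chosen by symbol as core members of the pathway, and all 7 were among the 24054 gene symbols in the count files and among the 14860 genes that passed the filter on low counts. The 3 groups held 4 libraries each. BTPRZ-T was tumour of genotype BrafV600E;Tgfbr2-/-;Rnf43-/-/Znrf3-/-;p16 Ink4a-/-. BT-T was tumour of genotype BrafV600E;Tgfbr2-/-. N was wild type normal colon. The labels give the strain of all 3 groups as NSG, an immunodeficient mouse line, and the series describes the tumours as engrafted and derived from edited colonic organoids, with the normal colon taken beside them. BTPRZ-T and BT-T therefore share the Braf and Tgfbr2 alleles, and BTPRZ-T adds the loss of Rnf43, Znrf3 and p16 Ink4a. The labels give no age. They do not say how many edited organoid lines gave rise to the tumours, nor whether each library stands for its own animal. The libraries of a group may therefore not be independent. The p-values below set differences between groups against the spread between these libraries.

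RAS proteins are small GTPases that pass signals from receptors at the cell surface when they bind GTP. GTP-bound RAS recruits RAF kinases to the membrane, RAF kinases phosphorylate MEK1 and MEK2, and these phosphorylate ERK1 and its close relative ERK2. Signalling through the cascade is controlled mainly by GTP loading, phosphorylation and feedback, and RNA levels do not measure it. The V600E change makes the Braf kinase active without RAS, and in people it is a common driver of serrated colon tumours. The tumours here were made with that change, so the RNA of the kinase and of its neighbours in the cascade can be set side by side in edited tumours and normal colon.

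The edited position lies in Braf, a gene on the minus strand of chromosome 6 at chr6:39603237-39725463 of the GRCm38 build. The codon that V600E names by human numbering is codon 637 of 804 in the longest mouse coding sequence, in exon 18 of 22, at chr6:39627782-39627784. The genome sequence around it, at chr6:39627758-39627808 on the gene's strand, is shown because it is the one coding site of the cascade that the tumours were made to differ at, with the valine codon in capitals.
Braf codon 637: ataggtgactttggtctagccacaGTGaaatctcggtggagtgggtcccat
Counts per gene do not separate the edited from the unedited allele, so the values below sum both.

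The promoters of Braf, Nras and Map2k1 are shown because these 3 genes passed the test in the comparison of BTPRZ-T with N when 1 normal library was set aside, as described below. Each holds 250 bases before to 50 bases after the gene's start, from RefSeq in the GRCm38.p6 build, which listed 6 of the 7 genes, all but Mapk3. Capitals mark matches on either strand to the GC box GGGCGG, the CCAAT box CCAAT and the cyclic AMP response element TGACGTCA. A match is a description of the letters and was not set against any measurement of binding.
Braf, minus strand, chr6:39725414-39725713: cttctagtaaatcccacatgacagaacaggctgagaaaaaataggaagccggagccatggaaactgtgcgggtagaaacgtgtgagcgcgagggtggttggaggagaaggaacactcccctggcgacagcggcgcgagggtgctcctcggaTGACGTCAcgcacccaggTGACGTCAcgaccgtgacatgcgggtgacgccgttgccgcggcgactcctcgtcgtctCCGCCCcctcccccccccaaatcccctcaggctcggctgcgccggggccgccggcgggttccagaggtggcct
Nras, plus strand, chr3:103058035-103058334: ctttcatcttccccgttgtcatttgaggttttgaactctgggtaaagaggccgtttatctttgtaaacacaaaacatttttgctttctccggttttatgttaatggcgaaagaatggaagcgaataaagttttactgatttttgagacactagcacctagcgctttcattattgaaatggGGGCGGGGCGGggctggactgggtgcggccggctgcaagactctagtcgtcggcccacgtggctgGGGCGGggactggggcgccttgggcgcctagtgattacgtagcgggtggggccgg
Map2k1, minus strand, chr9:64253556-64253855: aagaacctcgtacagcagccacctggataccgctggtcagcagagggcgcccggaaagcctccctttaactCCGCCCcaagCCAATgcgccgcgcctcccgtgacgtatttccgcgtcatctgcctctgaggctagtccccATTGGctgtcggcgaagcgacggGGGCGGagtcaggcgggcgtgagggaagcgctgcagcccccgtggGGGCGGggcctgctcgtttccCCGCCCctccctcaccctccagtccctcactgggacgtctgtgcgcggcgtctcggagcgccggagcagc
The Braf window held 2 copies of TGACGTCA, which was found in 1.79% of 32851 mouse promoters of the same length. It also held 1 GC box. The Nras window held 3 GC boxes, and the Map2k1 window held 4 GC boxes and 2 CCAAT boxes. Of all promoters, 35.7% held a GC box and 37.4% a CCAAT box.

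The libraries held 15732004 to 26052772 reads in genes. The lowest count of a member in any library was that of Braf, which had 214 to 1311 reads per library. Hras had 489 to 1853. Counting error was therefore at most 6.84% of a member's value. Libraries differed in composition, N replicate 2 most among the normal ones. In that library, ribosomal protein genes took 10.96% of reads, against 1.59 to 1.94% in N replicates 1, 3 and 4, and 14175 genes had a read, against 16152 to 16432. The share was 3.64 to 9.09% in BTPRZ-T, highest in replicate 1, and 1.86 to 2.73% in BT-T, and the genes with a read numbered 13450 to 16438 in BTPRZ-T, fewest in replicate 4, and 16738 to 17266 in BT-T. Levels in N replicate 2 were also lower for longer transcripts: the slope of its log2 level, relative to the mean of all libraries, was -0.79 per doubling of length, against 0.18 to 0.29 in those N libraries. The slope ran from -0.47, in replicate 1, to 0.065 in BTPRZ-T and from 0.043 to 0.28 in BT-T. Calls among the 7 genes are given below with and without N replicate 2, and also with BTPRZ-T replicates 1 and 4 set aside as well. Counts for cell type markers, and those for lists of other genes unless stated, are from all 12 libraries. The genes lost by editing kept reads in the tumours, and gene counts do not show small edits. Levels are given in CPM, reads per library scaled to a common total, for BTPRZ-T, BT-T and N in that order. Rnf43 had 82.9 to 193, 56.9 to 87.2 and 19.3 to 74.6 CPM. Cdkn2a, the gene of p16 Ink4a, had 18.8 to 31.4, 8.21 to 15.8 and 0.23 to 0.35 CPM. Znrf3 had 16.7 to 37.3, 19.7 to 30.4 and 1.90 to 39.1 CPM. Tgfbr2 had 149 to 271, 314 to 527 and 71.1 to 286 CPM. Which cells of the bulk tissue these reads came from was not tested.

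All 7 genes were expressed in every library. Levels per kilobase of the longest transcript allow the genes to be set in order. Mapk3 was the highest in each group, at mean CPM per kilobase of 272 in BTPRZ-T, 258 in BT-T and 303 in N. Map2k2 followed at 54.2, 45.1 and 49.6 CPM per kilobase in the same 3 groups, and Map2k1 at 41.7, 49.5 and 64.1 CPM per kilobase, so the MEK genes changed places between BTPRZ-T and the other 2 groups. The ranges of the MEK genes over libraries overlapped in all 3 groups. Araf averaged 31.3, 25.5 and 33.9 CPM per kilobase, Nras 24.9, 23.9 and 20.01, and Hras 18.2, 11.9 and 19.8. Braf, the edited gene, was the lowest in each group, at 3.24, 5.49 and 5.50 CPM per kilobase. The range of Mapk3 lay above that of every other member in each group and the range of Braf below, and the genes between them overlapped in part. Araf overlapped Nras in BT-T, Hras and Map2k1 in BTPRZ-T, and Hras and Map2k2 in N. Hras also overlapped Nras in BTPRZ-T and N, and Map2k2 in N. The longest Braf transcript has 9728 bases, against 1800 to 4470 for the other 6, and a transcript model with a long untranslated end lowers a value per kilobase. Without division by length, mean Braf was 31.5 CPM in BTPRZ-T, 53.4 in BT-T and 53.5 in N, against 51.4, 33.6 and 56.0 CPM of Hras. Without N replicate 2 the N means were 66.5 CPM of Braf and 32.8 CPM of Hras. The place of Braf as the lowest gene thus depends on the length used.

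**Figure D1:**
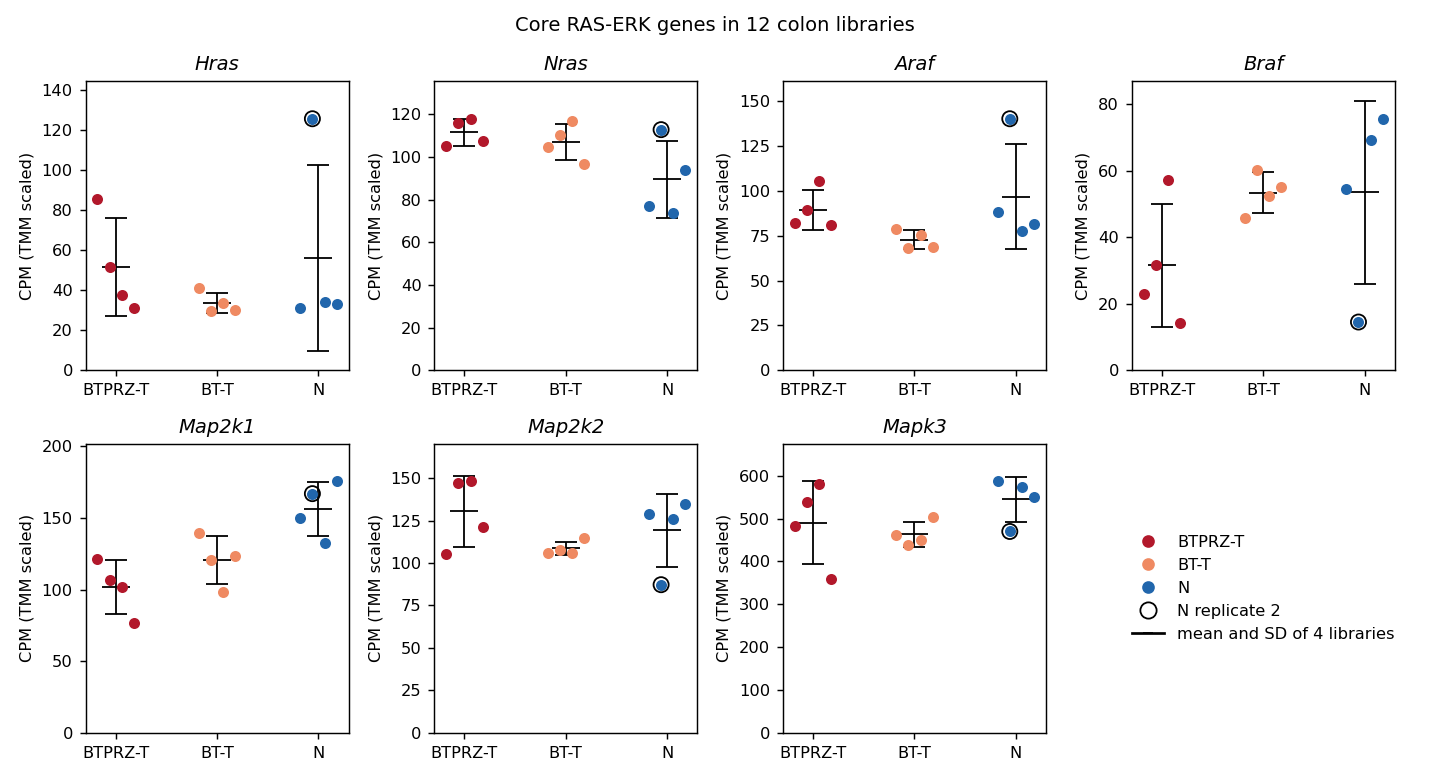
Levels of the 7 genes in 12 libraries. Each panel plots CPM scaled by TMM factors on an axis from 0 for BTPRZ-T, BT-T and N; points are libraries, bars are the mean and SD of 4, and a ring marks N replicate 2. N replicate 2 is the highest library for Hras, at 125 CPM, and for Araf, at 140.2 CPM.

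Among the 7 genes, none passed the test in any of the 3 comparisons when all 12 libraries were used. In the comparison of BTPRZ-T with N, 0 of 7 were called by edgeR's quasi-likelihood test at a Benjamini-Hochberg adjusted p under 0.05, where 11.8% of all tested genes were called, and 1 of 7, Map2k1, had an unadjusted p under 0.05. DESeq2 called 1 of 7, again Map2k1, and limma with voom called 0. In the comparison of BT-T with N, 0 of 7 were called by edgeR, where 8.57% of all genes were called, and 0 of 7 had an unadjusted p under 0.05. DESeq2 and limma with voom also called 0. In the comparison of BTPRZ-T with BT-T, 0 of 7 were called, where 0.754% of all genes were called, with 0 at an unadjusted p under 0.05, 0 by DESeq2 and 0 by limma with voom. The median log2 fold change of the 7 was -0.12 for BTPRZ-T relative to N, -0.23 for BT-T relative to N and 0.081 between the tumours, and over all tested genes it was -0.10, -0.097 and -0.026. Both comparisons with normal colon use the same N libraries.

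**Figure D2:**
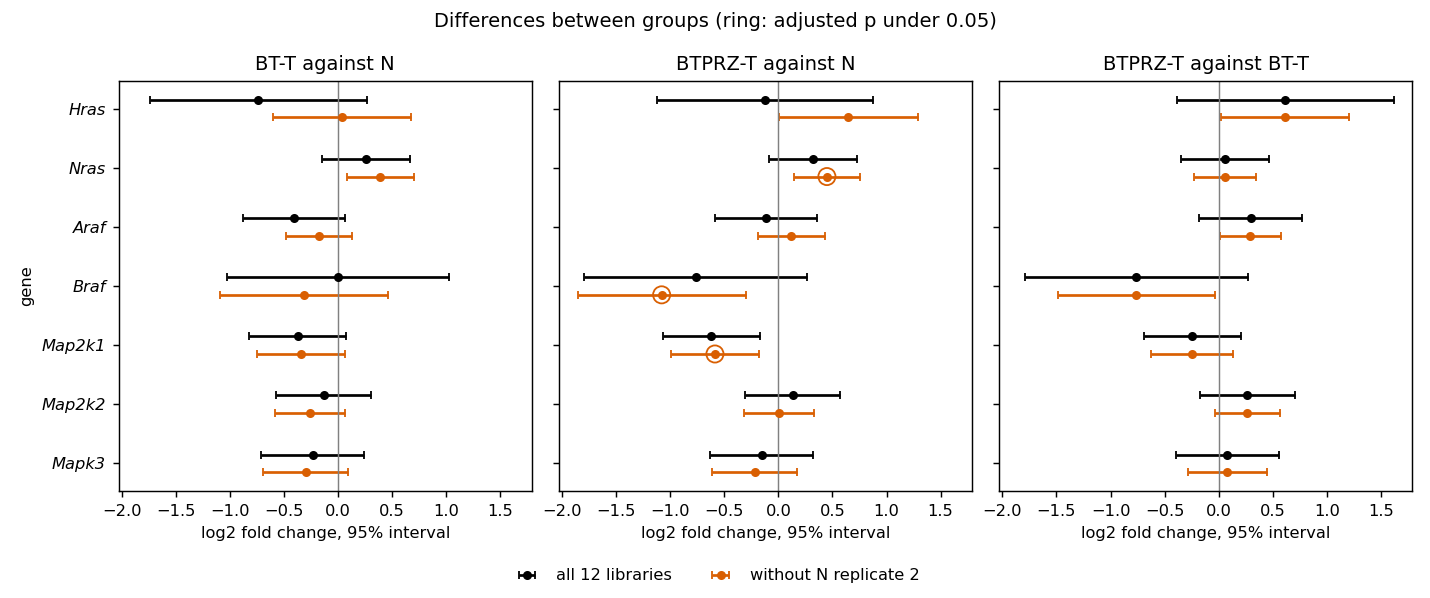
Log2 fold changes of the 7 genes in 3 comparisons. Points are estimates from edgeR and bars their 95% intervals, in black with all 12 libraries and in orange without N replicate 2; a ring marks an adjusted p under 0.05. The rings fall on Nras, Braf and Map2k1 in BTPRZ-T against N, all in the fit without N replicate 2.

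Setting N replicate 2 aside changed the count in 1 comparison. In BTPRZ-T against N, 3 of 7 genes were then called, 1 higher and 2 lower, where 32.3% of 15045 tested genes were called, 16.6% higher and 15.7% lower. For BT-T against N, 0 of 7 were called, where 13.5% of genes were called, and Nras alone had an unadjusted p under 0.05. In BTPRZ-T against BT-T, 0 of 7 were called, where 18% of genes were called, and Araf, Hras and Braf had an unadjusted p under 0.05. The count in BTPRZ-T against N rests on leaving out that library. Leaving out a library can only keep or raise the share of genes whose groups do not overlap. That share was then 38.2% of all genes in BTPRZ-T against N, with Nras and Map2k1 among the 7. In BT-T against N it was 38.4%, with Nras, Map2k2 and Mapk3. Setting aside BTPRZ-T replicates 1 and 4 as well, the tumour libraries with the lowest length slopes, gave 2 of 7 in BTPRZ-T against N, where 34.9% of genes were called, 1 in BT-T against N, where 28.7% were, and 2 between the tumours, where 24.5% were.

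Of the RAS genes, Hras, on chromosome 7, encodes a RAS protein that is anchored to membranes by farnesyl and palmitoyl groups. It had 85.6, 51.3, 37.6 and 31.2 CPM in BTPRZ-T, 40.8, 29.7, 33.7 and 29.99 CPM in BT-T, and 31.3, 125, 34.1 and 33.0 CPM in N. The highest values were those of N replicate 2 and BTPRZ-T replicate 1, and the groups overlapped. The means were 51.4 ± 24.3 CPM in BTPRZ-T, 33.6 ± 5.19 CPM in BT-T and 56.0 ± 46.3 CPM in N (SD, n = 4 each). The log2 fold change of Hras was -0.12 ± 0.46 (SE) in BTPRZ-T against N, with an edgeR adjusted p of 0.917, and -0.74 ± 0.46 in BT-T against N, with an adjusted p of 0.356. Between the tumours it was 0.61 ± 0.46, with a 95% interval of -0.39 to 1.62, and it was 0.25 without BTPRZ-T replicate 1. The sign in BTPRZ-T against N was not stable: 5 of 24 alternatives gave a value above 0, among them limma with voom over all 12 libraries (0.053) and the fits without BTPRZ-T replicate 3 (0.0019) or 4 (0.065). Without N replicate 2, BTPRZ-T stood 0.65 ± 0.30 above N, with an adjusted p of 0.112, and BT-T 0.033 ± 0.29 above N, with an adjusted p of 0.967. The 3 remaining N libraries averaged 32.8 ± 1.46 CPM (SD, n = 3).

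Nras, on chromosome 3, encodes the RAS protein that is often mutated in human melanoma and leukaemia. It had 105, 116, 118 and 107 CPM in BTPRZ-T, 105, 110.1, 117 and 96.6 CPM in BT-T, and 77.0, 113, 74.0 and 94.1 CPM in N. N replicate 2, at 113 CPM, lay within the range of both tumour groups, and the other 3 N libraries lay below every tumour library. With N replicate 2 set aside, 38.2% of all genes had no overlap in BTPRZ-T against N, and 38.4% in BT-T against N. With all libraries, Nras differed by a log2 fold change of 0.32 ± 0.19 in BTPRZ-T against N (edgeR adjusted p 0.329) and of 0.26 ± 0.19 in BT-T against N (adjusted p 0.434). Without N replicate 2 it rose in BTPRZ-T against N, by 0.45 ± 0.14 (95% interval 0.14 to 0.76), with an adjusted p of 0.0308, while the value in BT-T against N was 0.39 ± 0.14, with an adjusted p of 0.0946. Between the tumours Nras differed by 0.059 ± 0.19, with an interval of -0.35 to 0.47. With the trend on transcript length removed from each library, Nras differed by -0.00082 in BT-T against N, with an adjusted p of 1.00, and its adjusted p in BTPRZ-T against N was 0.552. Fibroblast markers were also higher in the tumours: 4 of 10 rose in BTPRZ-T and 8 of 10 in BT-T against N. Of all genes, 11.8% and 8.57% were called in these comparisons. The summed level of the markers was 1896 to 8608 CPM over the BTPRZ-T libraries, 8704 to 16982 CPM over the BT-T libraries and 1263 to 2049 CPM over the N libraries. The part of fibroblasts in the Nras result was not tested, and in bulk tissue fewer cells of a type and less RNA per cell cannot be told apart.

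Of the RAF genes, Braf had 23.0, 31.7, 57.1 and 14.1 CPM in BTPRZ-T, 45.7, 60.3, 52.3 and 55.2 CPM in BT-T, and 54.6, 14.5, 69.3 and 75.6 CPM in N. The 2 lowest libraries were BTPRZ-T replicate 4 and N replicate 2, and BTPRZ-T replicate 3 lay among the BT-T libraries. The means were 31.5 ± 18.5 CPM in BTPRZ-T, 53.4 ± 6.11 CPM in BT-T and 53.5 ± 27.5 CPM in N. Braf differed by a log2 fold change of -0.76 ± 0.48 in BTPRZ-T against N, with an interval of -1.80 to 0.27 and an edgeR adjusted p of 0.359. It differed by -0.0035 ± 0.47 in BT-T against N (adjusted p 0.998) and by -0.76 ± 0.48 in BTPRZ-T against BT-T (adjusted p 0.423). The difference from N was -1.22 without BTPRZ-T replicate 3, -0.51 without BTPRZ-T replicate 4 and -0.45 with the length trend removed, and that from BT-T was -1.22, -0.56 and -0.26. Without N replicate 2, Braf fell in BTPRZ-T against N by 1.08 ± 0.36 on the log2 scale, with an adjusted p of 0.0369, although BTPRZ-T replicate 3 still overlapped the N libraries. Without BTPRZ-T replicates 1 and 4 as well, the difference was -0.54 ± 0.23, with an adjusted p of 0.0964. Of the reads of Braf, few can be confused with another gene: 47 of the 9976 windows of 100 bases in its exons also match Ndufb2, which overlaps 146 exon bases on the opposite strand.

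Araf, on chromosome X, encodes a RAF kinase with lower basal activity than Braf. It had 82.2, 89.1, 105 and 81.0 CPM in BTPRZ-T, 78.6, 68.3, 75.6 and 68.9 CPM in BT-T, and 88.0, 140.2, 77.5 and 81.3 CPM in N. Every BTPRZ-T library lay above every BT-T library, by as little as 81.0 against 78.6 CPM. Araf was the single gene of the 7 whose libraries did not overlap between the tumour groups, where 24.2% of all genes did not overlap, and its log2 fold change there was 0.29 ± 0.22, with an edgeR adjusted p of 0.495. Against N it differed by -0.11 ± 0.22 in BTPRZ-T (adjusted p 0.815) and by -0.41 ± 0.22 in BT-T (adjusted p 0.273). N replicate 2 was the highest library, and without it the differences from N were 0.12 ± 0.14 in BTPRZ-T and -0.17 ± 0.14 in BT-T, with adjusted p of 0.536 and 0.506 by the same test.

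Of the MEK genes, Map2k1, on chromosome 9, encodes MEK1, a kinase whose known substrates are the ERK kinases. It had 122, 107, 102 and 76.5 CPM in BTPRZ-T, 139, 121, 98.4 and 124 CPM in BT-T, and 150.1, 167, 132 and 175 CPM in N. Every BTPRZ-T library lay below every N library, N replicate 2 included, while BT-T overlapped both groups. In BTPRZ-T against N, Map2k1 was the 1 gene of the 7 with groups that did not overlap, where 14.5% of all genes did not overlap. In BT-T against N, 0 of the 7 genes had groups that did not overlap, where 22.4% of all genes had. The means of Map2k1 were 101.7 ± 18.8 CPM in BTPRZ-T, 121 ± 16.9 CPM in BT-T and 156 ± 19.1 CPM in N (SD, n = 4 each). The log2 fold change in BTPRZ-T against N was -0.62 ± 0.21, with an interval of -1.07 to -0.17 and an unadjusted p of 0.0107. Its edgeR adjusted p, 0.0729, missed the threshold. Of the 24 alternatives, 20 did not call Map2k1 in BTPRZ-T against N and 4 did. It fell by DESeq2 (log2 fold change -0.66, adjusted p 0.00856), with the trend on length removed (-0.70, adjusted p 0.0173), without N replicate 2 (-0.59 ± 0.19, adjusted p 0.0319) and without BTPRZ-T replicates 1 and 4 as well (-0.49, adjusted p 0.0475). Over all 24 its adjusted p ran from 0.00856 to 0.236 and its difference from -0.72 to -0.49. In BT-T against N it was -0.37 ± 0.21 (adjusted p 0.289) and between the tumours -0.25 ± 0.21 (adjusted p 0.543), so the difference between the tumour groups was not detected.

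Markers of several cell types also differed in BTPRZ-T against N, where edgeR called 11.8% of all tested genes, 5.66% higher and 6.18% lower. Of 9 smooth muscle markers, 6 fell and 0 rose, and of 9 enteric neuron and glia markers, 3 fell and 0 rose. Among fibroblast markers 4 of 10 rose, among macrophage markers 3 of 9, among endothelial markers 2 of 8 and among epithelial markers 1 of 10, and 0 of these fell. The summed level of the 9 muscle markers was 479.6 to 4887 CPM over the BTPRZ-T libraries, 3692 to 6034 CPM over the BT-T libraries and 7378 to 19101 CPM over the N libraries, and that of the 9 neuron and glia markers 7.05 to 37.8 CPM, 28.4 to 77.3 CPM and 47.6 to 111 CPM in the same 3 groups. In that order of groups, the macrophage sums were 294 to 2276, 928 to 1724 and 164 to 573 CPM, and the endothelial sums 316 to 626, 424 to 829 and 107 to 258 CPM. The epithelial sums were 8141 to 17731, 9575 to 11245 and 11339 to 13441 CPM. No marker of these lists was at 0 in every library of a group. The part of these cell types in the Map2k1 result was not tested. The Map2k1 level had a Pearson r of -0.070 with the length slope over the 12 libraries and of 0.38 over the 11 without N replicate 2, as a description.

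Map2k2, on chromosome 10, encodes MEK2. It had 105, 147, 148 and 121 CPM in BTPRZ-T, 106, 108, 106 and 114 CPM in BT-T, and 129, 87.2, 126 and 135 CPM in N. BT-T libraries lay within 106 to 114 CPM, and BTPRZ-T replicate 1 and N replicate 2 were below them. Map2k2 differed by 0.13 ± 0.20 in BTPRZ-T against N (edgeR adjusted p 0.762), by -0.13 ± 0.20 in BT-T against N (adjusted p 0.744) and by 0.27 ± 0.20 in BTPRZ-T against BT-T (adjusted p 0.503). The 95% interval of the last ran from -0.17 to 0.70. With N replicate 2 set aside, all 4 BT-T libraries lay below the 3 remaining N libraries, where 38.4% of all genes did not overlap, at a log2 fold change of -0.26 ± 0.15 and an adjusted p of 0.316.

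Mapk3, on chromosome 7, encodes ERK1, the kinase at the end of the cascade. It had 482, 539, 581 and 359 CPM in BTPRZ-T, 462, 439, 449 and 505 CPM in BT-T, and 587, 470.0, 574 and 549.5 CPM in N. BTPRZ-T replicate 4 was the lowest library of all, and the groups overlapped. The log2 fold change was -0.15 ± 0.22 in BTPRZ-T against N (edgeR adjusted p 0.741), -0.23 ± 0.22 in BT-T against N (adjusted p 0.565) and 0.081 ± 0.22 in BTPRZ-T against BT-T (adjusted p 0.865). The interval between the tumours, -0.40 to 0.56, bounds the difference at a fold of 0.76 to 1.47. When N replicate 2 was left out, the BT-T libraries lay below the N libraries, where 38.4% of all genes did not overlap, with a difference of -0.30 ± 0.18 and an adjusted p of 0.339.

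The precision differed among the 7. Standard errors in BTPRZ-T against N were 0.19 to 0.22 for Nras, Map2k2, Map2k1, Araf and Mapk3, and 0.46 to 0.48 for Hras and Braf. For Nras, 2.7% of all tested genes had a smaller standard error, and for Mapk3 9.19%, against 56.6% for Hras and 58.9% for Braf. Over the 12 libraries, the Pearson r of log2 level with that slope was -0.93 for Hras, 0.87 for Braf, -0.73 for Araf, 0.52 for Map2k2, -0.42 for Nras, 0.30 for Mapk3 and -0.070 for Map2k1. Without N replicate 2 it was -0.84, 0.83, -0.32, 0.12, -0.40, 0.33 and 0.38 in the same order. The libraries share their depth and slope across all genes, so these are descriptions, and the part of the slope in each result was not tested beyond the fit with the length trend removed. In that fit, 1 of 7 genes was called in BTPRZ-T against N, Map2k1, and 0 in each of the other comparisons, and with a replicate block added to it 0 were called in any, Map2k1 at an adjusted p of 0.053.

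**Figure D3:**
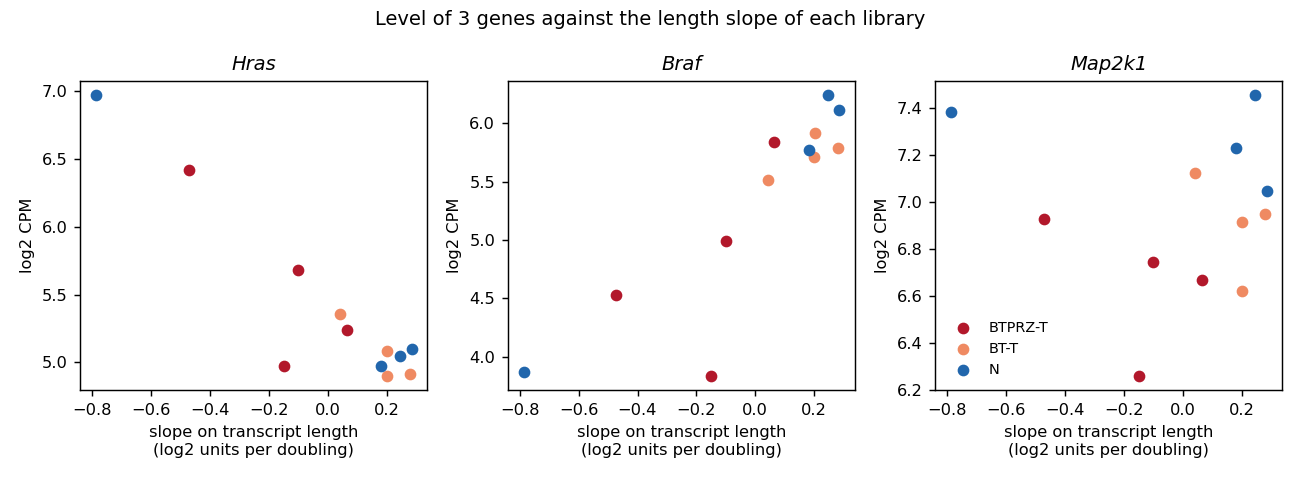
Level of Hras, Braf and Map2k1 against the length slope of each library. The x axis is the slope of a library's log2 level on transcript length, in log2 units per doubling, and the y axis is log2 CPM; points are the 12 libraries. Hras is highest and Braf among the lowest at the left end, where N replicate 2 stands at -0.79, and Map2k1 shows no such order (r = -0.070).

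Reads of paralogs were also compared within each library, which cancels the library total. The ratio of Araf to Braf reads was 1.84 to 5.73 in the BTPRZ-T libraries, 1.13 to 1.72 in the BT-T libraries and 1.08 to 9.68 in the N libraries. All 4 BTPRZ-T libraries lay above all BT-T libraries, and N replicate 2 held the highest ratio of the 12. The other 3 N libraries had 1.08 to 1.61, also below every BTPRZ-T library. The ratio moved with the length slope of the libraries, with a Pearson r of its log2 value of -0.93 over the 12 libraries and -0.86 without N replicate 2, and BTPRZ-T replicates 1 and 4, with slopes of -0.47 and -0.15, held the highest BTPRZ-T ratios, 3.58 and 5.73. The part of the slope in the order of the groups was not tested. In log2 units the ratio averaged 1.68 ± 0.68 in BTPRZ-T, 0.45 ± 0.26 in BT-T and 1.06 ± 1.502 in N (SD, n = 4 each). The ratio of Hras to Nras reads was 0.291 to 0.816 in BTPRZ-T, 0.270 to 0.391 in the BT-T libraries and 0.351 to 1.11 in N, and its groups overlapped. The r of its log2 value with the slope was -0.83, or -0.64 without N replicate 2, and for Map2k2 to Map2k1 it was 0.31, or -0.28. The ratio of Map2k2 to Map2k1 reads was 0.865 to 1.59 in BTPRZ-T, 0.760 to 1.08 in the BT-T libraries and 0.522 to 0.950 in N. It exceeded 1 in BTPRZ-T replicates 2, 3 and 4, with 1.38, 1.46 and 1.59, in BT-T replicate 3, with 1.08, and in 0 of 4 N libraries. The log2 ratio averaged 0.36 ± 0.39 in BTPRZ-T, -0.14 ± 0.21 in BT-T and -0.40 ± 0.38 in N. These ratios are descriptions with no test.

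**Figure D4:**
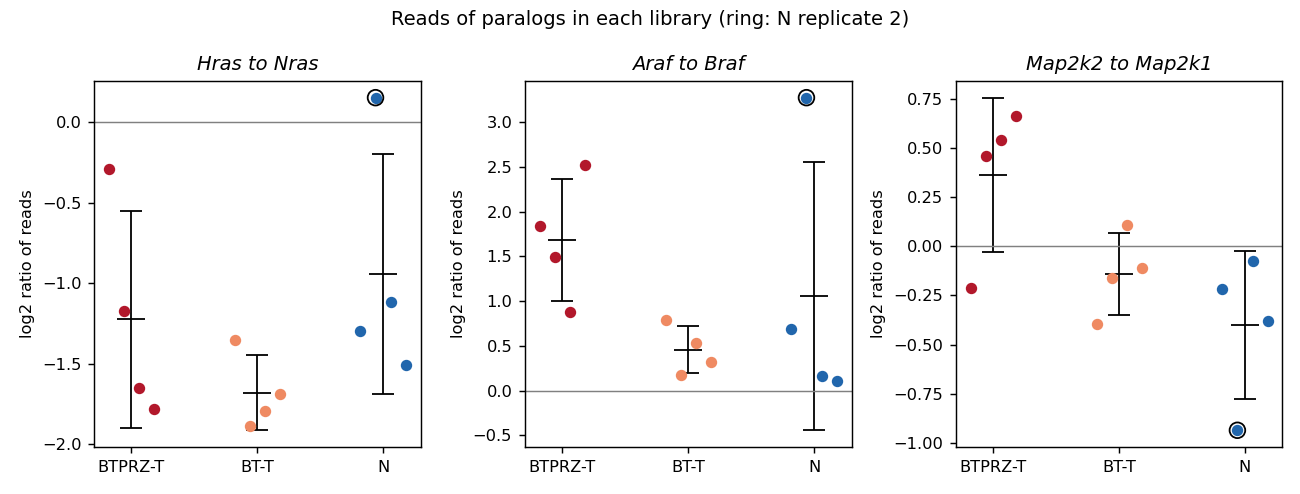
Log2 ratio of the reads of paralogs in each library, for Hras to Nras, Araf to Braf and Map2k2 to Map2k1. Points are libraries of BTPRZ-T, BT-T and N, bars are the mean and SD of 4, a ring marks N replicate 2 and the grey line marks equal reads. Each BTPRZ-T library has a higher Araf to Braf ratio than each BT-T library, 1.84 to 5.73 against 1.13 to 1.72.

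The genes whose log2 levels were most like each member's over the 12 libraries, among all tested genes, were Baz2b (Pearson r 0.99) and Qrich1 (0.98) for Braf, Pick1 (0.97) and Efcab4a (0.96) for Araf, and Arpc5l (0.99) and Mrps6 (0.99) for Hras. For Nras they were Cyth2 (0.94) and Gnl2 (0.93), and for Map2k1 Plekhf2 (0.97) and 6720468P15Rik (0.96). For Map2k2 they were Triobp and Zfp598 (0.93 each) and for Mapk3 Paqr4 (0.98) and Trim31 (0.97). These correlations lay between 0.88 and 0.99 over the 11 libraries without N replicate 2. Spearman's rank correlations over all 12 ran from 0.84 to 0.97 and were lowest for the 2 genes of Hras, at 0.85 and 0.84. Each pair of genes is the top 2 of all tested genes, so these are descriptions with no test. Levels of Hras and Braf also moved with the length slope (r -0.93 and 0.87), whose part in these correlations was not tested. Over the 21 pairs of members, r ran from -0.66, of Braf with Hras, to 0.72, of Araf with Hras. Without N replicate 2 it ran from -0.59, of Nras with Map2k1, to 0.73, of Araf with Map2k2, and Araf with Hras had 0.29.

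Other genes around the cascade were taken from 8 lists of 94 genes, of which 91 were tested. In BTPRZ-T against N, 7 rose and 3 fell, which is 11% of the 91 beside 11.8% of all genes. BT-T against N had 4 that rose and 2 that fell, or 6.59% beside 8.57% of all genes. Between the tumours, 1 rose and 0 fell, or 1.1% beside 0.754%. With N replicate 2 left out the counts were 23 and 12 in BTPRZ-T against N, 6 and 4 in BT-T against N, and 10 and 8 between the tumours, or 38.5%, 11% and 19.8% of the 91, beside 32.3%, 13.5% and 18% of all genes. Without BTPRZ-T replicates 1 and 4 as well, they were 27 and 13, 21 and 8, and 12 and 9 in the same order. These were 44%, 31.9% and 23.1% of the 91, beside 34.9%, 28.7% and 24.5% of all genes. With only the 2 compared groups fitted, Rasgrf2, Pea15a, Cnksr3, Ppp1cb, Rps6ka4 and Dusp6 lost the calls in BTPRZ-T against N that are described below, and Map2k6 lost its call in BT-T against N, with adjusted p of 0.0689 to 0.166.

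Exchange factors load RAS with GTP, and adaptors bring these loaders to receptors. Of 13 tested, 1 fell and 0 rose in BTPRZ-T against N, where 11.8% of all genes were called. The gene was Rasgrf2, a calcium-responsive exchange factor, with a log2 fold change of -2.23 ± 0.61 and an edgeR adjusted p of 0.0325. Rasgrf2 had 2.96 ± 1.35 CPM in BTPRZ-T and 13.96 ± 8.52 CPM in N. Its call was lost without any 1 of the BTPRZ-T libraries or without N replicate 1, 3 or 4, with adjusted p of 0.0503 to 0.0988. In BT-T against N and between the tumours, edgeR called 0 of the 13, with 2 and 2 at an unadjusted p under 0.05, while DESeq2 called 1 and 0 and limma with voom 0 and 0. The exchange factor list's most abundant uncalled genes were the phosphatase gene Ptpn11, with 107 CPM in BTPRZ-T, 159.7 in BT-T and 144 in N, and the adaptor gene Shc1, with 137, 121 and 90.5 CPM. With N replicate 2 left out, 1 of the 13 rose and 3 fell in BTPRZ-T against N, where 32.3% of all genes were called. In BT-T against N 1 rose and 1 fell, where 13.5% were called. Between the tumours 0 rose and 2 fell, where 18% were called.

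RAS GTPase-activating proteins switch RAS off. Of 10 such genes, 2 rose and 0 fell in BTPRZ-T against N, where 11.8% of all genes were called. Rasa4, a calcium-promoted member of that family, had 148, 125, 202 and 138 CPM in BTPRZ-T, 47.1, 51.5, 74.2 and 42.8 CPM in BT-T, and 37.0, 44.5, 27.7 and 31.9 CPM in N. Every BTPRZ-T library lay above every library of both other groups. Over all genes, 14.5% did not overlap in BTPRZ-T against N and 24.2% between the tumours. Rasa4 rose by 2.12 ± 0.25 on the log2 scale in BTPRZ-T against N (edgeR adjusted p 0.000459), a call held by all 24 alternatives. It also rose in BTPRZ-T against BT-T, by 1.51 ± 0.25 (adjusted p 0.0285), but in the fits without 1 library that call was lost without BTPRZ-T replicate 1, 2 or 3, BT-T replicate 1, 2 or 4, or N replicate 1, with adjusted p of 0.0533 to 0.121. Rasal1, another GTPase-activating gene, had 11.9, 14.6, 25.0 and 15.1 CPM in BTPRZ-T and at most 1.73 CPM in N, with 0 reads in N replicate 2. It rose by 4.14 ± 0.89 (adjusted p 0.0106), also in all 24 alternatives. In BT-T against N, 1 rose and 0 fell, where 8.57% of all genes were called. The gene was Rasa3, with 86.2 ± 8.62 CPM in BT-T and 50.7 ± 6.09 CPM in N (0.77 ± 0.17, edgeR adjusted p 0.0168). Its adjusted p was 0.0742 without BT-T replicate 2 and 0.0606 without BT-T replicate 3. With N replicate 2 left out, 2 of the 10 rose and 1 fell in BTPRZ-T against N, where 32.3% of all genes were called. In BT-T against N 1 rose and 0 fell, where 13.5% were called. Between the tumours 2 rose and 1 fell, where 18% were called.

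Of 10 tested genes of other RAS-like GTPases, edgeR called 0 in each comparison. In BTPRZ-T against N 2 of them had an unadjusted p under 0.05, and 0 had one in BT-T against N or between the tumours. DESeq2 and limma with voom each called 1 in BTPRZ-T against N and 0 in the others. Rap1b, which acts in cell adhesion, averaged 211 CPM in BTPRZ-T, 174 in BT-T and 196 in N with N replicate 2 at 457 CPM. Without that library 4 of the 10 rose in BTPRZ-T against N, where 32.3% of all genes were called, and 0 fell. In BT-T against N 1 rose and 0 fell, where 13.5% were called. Rap1b rose in BTPRZ-T against N (log2 fold change 0.95, edgeR adjusted p 0.00206) and in BT-T against N (0.68, adjusted p 0.0213). Ralb averaged 109 CPM in BTPRZ-T, 82.9 in BT-T and 111 in N. Of 7 genes for lipid modification and trafficking of RAS, edgeR, DESeq2 and limma with voom called 0 in each comparison, with 1 at an unadjusted p under 0.05 by edgeR in BTPRZ-T against N, 0 in BT-T against N and 1 between the tumours. The most abundant were Zdhhc9, a palmitoyl transferase gene, with 92.5, 98.7 and 99.6 CPM in BTPRZ-T, BT-T and N, and Icmt, a methyl transferase gene, with 44.5, 71.7 and 68.0 CPM. With N replicate 2 left out, 3 of these 7 genes rose and 1 fell in BTPRZ-T against N, where 32.3% of all genes were called. Between the tumours 1 rose and 1 fell, where 18% were called, and in BT-T against N 0 were called. The gene that fell was Icmt, in BTPRZ-T against N (log2 fold change -0.91, edgeR adjusted p 0.00375) and against BT-T (-0.69, adjusted p 0.0206).

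Of 20 genes of scaffolds and regulators of RAF, 1 rose and 2 fell in BTPRZ-T against N, where 11.8% of all genes were called. In BT-T against N 1 rose and 0 fell, where 8.57% were called. Pea15a, whose protein binds ERK and keeps it in the cytoplasm, had 189.5, 133, 92.5 and 265 CPM in BTPRZ-T, 138, 176, 175 and 150.3 CPM in BT-T, and 58.5, 87.0, 75.9 and 59.7 CPM in N. Every library of both tumour groups lay above every N library. Over all genes, 14.5% did not overlap in BTPRZ-T against N and 22.4% in BT-T against N. It rose by 1.28 ± 0.30 in BTPRZ-T against N (edgeR adjusted p 0.0166; 0.0574 without N replicate 1 and 0.0811 with BTPRZ-T and N fitted alone) and by 1.19 ± 0.30 in BT-T against N (adjusted p 0.0285). The BT-T call was lost without BT-T replicate 2, 3 or 4 or N replicate 1, 3 or 4, with adjusted p of 0.0589 to 0.0901. Cnksr3, a scaffold gene, fell in BTPRZ-T against N (log2 fold change -1.39 ± 0.39, adjusted p 0.0373), as did Ppp1cb, a phosphatase subunit gene (-0.93 ± 0.27, adjusted p 0.044). Both lost the call in 10 of the 12 fits that left out 1 library, with adjusted p up to 0.107 for Cnksr3 and 0.12 for Ppp1cb. Cnksr3 kept it without BTPRZ-T replicate 3 and without N replicate 2, and Ppp1cb without N replicate 2 and without N replicate 4. With the length trend removed Ppp1cb had an adjusted p of 0.122. Between the tumours edgeR called 0 of the 20, with 2 at an unadjusted p under 0.05, DESeq2 1 and limma with voom 0. The most abundant genes of the list there were Hsp90ab1, a chaperone gene, at 2321 CPM in BTPRZ-T and 1600 CPM in BT-T, and Iqgap1, at 671 and 916 CPM. The counts of this list moved when N replicate 2 was left out. Of the 20, 7 then rose and 3 fell in BTPRZ-T against N, where 32.3% of all genes were called. In BT-T against N 1 rose and 1 fell, where 13.5% were called. Between the tumours 6 rose and 1 fell, where 18% were called.

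Outside the core, other MAP kinases and the kinases of the tiers above them gave 1 call with all 12 libraries. It came in BT-T against N, where 8.57% of all genes were called. Of 13 tested, Map2k6, a kinase gene of the p38 pathway, fell in BT-T against N, with 12.1 ± 1.69 CPM in BT-T and 31.1 ± 18.4 CPM in N (log2 fold change -1.36 ± 0.37, edgeR adjusted p 0.0417). The call was lost in 8 of 12 fits without 1 library, with adjusted p up to 0.118, and kept without BTPRZ-T replicate 1 or 4 or N replicate 2 or 4. In BTPRZ-T against N and between the tumours edgeR called 0 of the 13, with 3 and 0 at an unadjusted p under 0.05, while DESeq2 called 2 and 0 and limma with voom 0 and 0. Mapk6 averaged 161 CPM in BTPRZ-T, 150.5 in BT-T and 190.2 in N, and Map2k3 111, 95.3 and 128 CPM. With N replicate 2 left out, 0 of the 13 rose and 3 fell in BTPRZ-T against N, where 32.3% of all genes were called. In BT-T against N 0 rose and 1 fell, where 13.5% were called, and between the tumours 0 were called, where 18% were. With the length trend removed, 3 were called in BTPRZ-T against N, where 17% of all genes were. In BT-T against N 2 were called, where 12.4% were.

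Of 7 kinases that ERK activates, 1 rose and 0 fell in each comparison with N. Of all genes, 11.8% were called in BTPRZ-T against N and 8.57% in BT-T against N. Rps6ka4, which encodes the nuclear kinase MSK2, had 66.9, 89.1, 124 and 59.4 CPM in BTPRZ-T, 62.5, 74.6, 77.4 and 82.9 CPM in BT-T, and 42.1, 38.8, 40.2 and 42.9 CPM in N. The N libraries were close together and lay below every tumour library. Over all genes, 14.5% did not overlap in BTPRZ-T against N and 22.4% in BT-T against N. Rps6ka4 rose by 1.05 ± 0.24 in BTPRZ-T against N (edgeR adjusted p 0.0127), and the call was kept in all 12 fits that left out 1 library. It rose by 0.86 ± 0.23 in BT-T against N (adjusted p 0.0399), and that call was lost in 8 of 12 such fits, with adjusted p up to 0.114, and kept without BTPRZ-T replicate 1, 3 or 4 or N replicate 2. With BTPRZ-T and N fitted alone, the adjusted p in BTPRZ-T against N was 0.0689. Between the tumours 0 of 7 were called by edgeR, DESeq2 and limma with voom, and 0 had an unadjusted p under 0.05. Rps6ka1 averaged 362 CPM in BTPRZ-T and 262 CPM in BT-T, and Mknk2 310.2 and 291 CPM. With N replicate 2 left out, 2 of the 7 rose and 0 fell in BTPRZ-T against N, where 32.3% of all genes were called. In BT-T against N 1 rose and 0 fell, where 13.5% were called. Between the tumours 0 rose and 1 fell, where 18% were called.

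Of 11 feedback genes that ERK signalling is known to induce, edgeR called 3 that rose and 0 that fell in BTPRZ-T against N. In BT-T against N it called 1 that rose and 1 that fell. DESeq2 called 5 in each of these comparisons, and limma with voom 2 in BTPRZ-T against N and 4 in BT-T against N. Of all genes, edgeR called 11.8% and 8.57%. Etv4, an ETS factor gene, had 85.2, 90.8, 87.5 and 89.9 CPM in BTPRZ-T against 21.1, 14.4, 19.2 and 42.8 CPM in N (log2 fold change 1.86 ± 0.31, edgeR adjusted p 0.00282), and Dusp4, a phosphatase gene, had 46.5, 38.2, 70.5 and 39.8 CPM against 5.18, 6.63, 4.02 and 18.3 CPM (2.52 ± 0.47, adjusted p 0.00531). In BT-T, Etv4 had 37.8, 45.9, 60.9 and 38.2 CPM and Dusp4 15.9, 25.5, 38.0 and 22.5 CPM. Both overlapped N, and edgeR called neither in BT-T against N or between the tumours. Dusp6 rose in BTPRZ-T against N by 0.83 ± 0.25 with an edgeR adjusted p of 0.0498. In BT-T against N, Spred1, a gene of a RAS pathway inhibitor, rose by 0.76 ± 0.20 (adjusted p 0.0367) and Etv5, another ETS factor gene, fell by 1.63 ± 0.39 (adjusted p 0.0225). Etv4 and Dusp4 kept their calls in all 24 alternatives, and Dusp6, Spred1 and Etv5 lost theirs in 9, 7 and 6 of the 12 fits without 1 library, with adjusted p up to 0.134, 0.118 and 0.0752. Dusp6 kept its call without BTPRZ-T replicate 1 or N replicate 2 or 4, Spred1 without BTPRZ-T replicate 1, 3 or 4 or N replicate 2 or 3, and Etv5 without any 1 of the BTPRZ-T libraries or N replicate 2 or 4. With the length trend removed, Dusp6 and Spred1 had adjusted p of 0.058 and 0.154. Between the tumours edgeR called 0 of the 11, with 3 at an unadjusted p under 0.05, DESeq2 2 and limma with voom 0. When N replicate 2 was left out, 4 rose and 1 fell in BTPRZ-T against N, where 32.3% of all genes were called. In BT-T against N 1 rose and 1 fell, where 13.5% were called, and between the tumours 1 rose and 2 fell, where 18% were called.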

How the data were processed

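RNA from 12 mouse colon libraries was sequenced, per the labels' protocols, from a stranded poly(A) kit with single-end reads, 100 bases long. The submitters' processing notes name bcl2fastq 2.20, STAR 2.4.2a with the mm10 genome, HTSeq, edgeR 3.16.5 and limma; the sources used here do not name the annotation of the symbols. The deposited values are raw read counts per gene in the layout of STAR, with no normalization by the authors. The stranded column with more gene reads was used.

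Counts were fitted with edgeR 4.0.16 (R 4.3.3): filterByExpr by group, TMM factors, glmQLFit with robust estimation and glmQLFTest, two-sided, with 1 mean per group over all 12 libraries, and Benjamini-Hochberg adjustment over 14860 genes. Alternatives included DESeq2 1.42.0, limma 3.58.1 with voom, other factors and filters, the unstranded column, a length offset and leaving out each library. The fit was tested on simulated data. Levels are CPM on the TMM scale, and ± is the SD after a mean and the standard error after a log2 fold change. Correlations used log2 CPM with a prior count of 2. Counting error ignores duplicate reads. Positions and lengths are from GENCODE M21 (GRCm38), promoters from RefSeq. Exon windows of 100 bases were searched for in other transcripts.

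Members and gene lists were chosen with earlier results of these data known. All 7 members were named. From each list, up to 3 called genes with the lowest adjusted p were named in a comparison, or, with none called, up to 2 with the highest mean CPM, and for each member the 2 most correlated genes. Some genes that this rule covers are not reported here. Libraries of a group differed by more than sampling noise (chi-square per degree of freedom 28.5 to 704).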

Additional observations from a re-analysis of the deposited data

Results flagged for a closer look

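N replicate 2 held 140.2 CPM of Araf, against 77.5 to 88.0 CPM in the other 3 N libraries, so the gap to the next library was 0.833 of the range of the group. The same library held 125 CPM of Hras, against 31.3 to 34.1 CPM in the other 3, a gap of 0.969 of the range. Both gaps exceed Dixon's critical value at 95% for a group of 4. Of 30 groups of values tested in this way, 2 were marked, and chance marks about 1 in 20. Both lie in the library with the highest share of ribosomal protein reads, 10.96%, and the lowest length slope, -0.79. The part of these properties in the Araf and Hras values was not tested.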

How the results depend on the processing

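Over the 7 genes, 3 comparisons and 24 alternatives, 504 values were computed. Of these, 466 kept direction and side of the threshold, 10 kept direction and passed the threshold, and 28 changed sign, of which 0 were called. Values that changed sign outside the fits without 1 library were as follows. Braf in BT-T against N was 0.065 with upper quartile factors, 0.054 with no filter, 0.0016 with 2 CPM in 4 libraries, 0.23 with voom, 0.0045 with the unstranded column, 0.052 with the 2 groups alone and 0.090 with the replicate block. Hras in BTPRZ-T against N was 0.053 with voom, and Nras in BTPRZ-T against BT-T was -0.00094 with the 2 groups alone. With the length trend removed, Nras in BT-T against N was -0.00082 and Mapk3 in BTPRZ-T against BT-T -0.18, or -0.20 with the replicate block as well. Without N replicate 2 and BTPRZ-T replicates 1 and 4, Hras in BT-T against N was 0.10, and in BTPRZ-T against N Araf was 0.29, Hras 0.50 and Mapk3 0.030.

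Genes called outside the fits without 1 library moved with DESeq2 to 3048 in BTPRZ-T against N, 2394 in BT-T against N and 1217 between the tumours, and to 5311, 4359 and 3723 without the 3 libraries named above. With voom, BTPRZ-T against BT-T gave 266, and with the length trend removed 218. With the 2 groups alone, BTPRZ-T against N gave 647 and BTPRZ-T against BT-T 1568. Members called were 1 in BTPRZ-T against N with DESeq2 and with the length trend removed, and without the 3 libraries 2 in BTPRZ-T against N (Nras 0.57, adjusted p 0.0115, and Map2k1 -0.49, 0.0475), 1 in BT-T against N (Nras 0.45, 0.0181) and 2 in BTPRZ-T against BT-T (Araf 0.41, 0.0267, and Map2k2 0.44, 0.0159). The causes were not tested.

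Without 1 library, genes called ran from 1076 to 4855 in BTPRZ-T against N, from 624 to 2030 in BT-T against N and from 0 to 2714 in BTPRZ-T against BT-T, each highest without N replicate 2. Members called ran from 0 to 3, 0 to 0 and 0 to 0. Ranges of members that changed sign there were -0.32 to 0.21 for Braf and -0.93 to 0.033 for Hras in BT-T against N, -0.21 to 0.12 for Araf and -0.48 to 0.65 for Hras in BTPRZ-T against N, and -0.012 to 0.17 for Mapk3 in BTPRZ-T against BT-T.

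The labels do not say that replicate numbers pair libraries. Deviations of same-numbered libraries correlated at -0.30 to 0.21 in BTPRZ-T against N, -0.25 to 0.24 in BT-T against N and 0.07 to 0.32 in BTPRZ-T against BT-T, where all 8 libraries correlated best with their own number, a hint from the data and not from the design. With the replicate block, 1160 genes were called in BTPRZ-T against N and 1 in BTPRZ-T against BT-T, and 0 members in each comparison; 11 of the 17 calls of named list genes were lost, against 3 with the length trend removed. Those lost with the block were Rasgrf2 (adjusted p 0.0743), Pea15a (0.0567), Cnksr3 (0.0802), Ppp1cb (0.0893) and Dusp6 (0.0797) in BTPRZ-T against N, Rasa3 (0.0529), Pea15a (0.0695), Map2k6 (0.0948), Rps6ka4 (0.0786) and Spred1 (0.0723) in BT-T against N, and Rasa4 (0.067) in BTPRZ-T against BT-T. Member counts were at least 214 per library, where counting error is 6.84% of the value. The parts of replicate spread and read depth in the precision were not tested.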
